A study of Mus musculus with 6 samples.

Results

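Transcripts of 9 genes of the neurotrophin and GDNF families were read where the roots of the mouse mandibular first molar divide, in the apical part of the furcation development region (FDR), at PN4.5: the ligands Ntf3, Bdnf and Gdnf, and the receptors Ntrk3, Ntrk2, Ngfr, Gfra2, Gfra1 and Ret. All 9 genes were found among the 23594 deposited genes, and all 9 passed the expression filter that left 20114 tested genes. The 9 genes were selected on named pathway membership after results of this same contrast in these libraries were known, so their differences between genotypes are given as a description, and the p-values beside them are no independent tests. The control libraries came from C57BL/6 mice labelled wild type, and the Lhx6-/- libraries from mice of the same strain and age in which a CreER sequence knocked into Lhx6 disrupts the gene throughout the body. Each of the 3 control and 3 Lhx6-/- libraries pooled laser-captured tissue of 8 molars cut from 12 µm sections, without a statement of how many mice gave them, and mice of both sexes were collected. The mutants were littermates of controls and the methods mention pairs, but not which libraries belong together. Spread between libraries is therefore spread between pools, and in such tissue fewer cells of a type cannot be told apart from less RNA per cell.

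Neurotrophins are secreted growth factors best known for guiding and sustaining sensory and sympathetic nerve fibres. NT-3, encoded by Ntf3, acts mainly through the receptor tyrosine kinase TrkC, encoded by Ntrk3, and BDNF acts mainly through TrkB, encoded by Ntrk2, while p75NTR, encoded by Ngfr, binds all neurotrophins and also marks neural crest and dental mesenchymal progenitor cells. GDNF binds the co-receptor GFRα1, encoded by Gfra1, neurturin binds GFRα2, encoded by Gfra2, and both complexes signal through the receptor tyrosine kinase RET. In the developing tooth, mesenchyme expresses several of these factors and receptors, and nerve fibres grow into the pulp after birth.

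The libraries held 60132323 to 76157433 estimated counts each. Lhx6, the disrupted gene, had 18.2 to 27.8 counts per 1000000 (CPM) in the control pools and 9.82 to 12.8 CPM in the Lhx6-/- pools, with no overlap (means 22.6 ± 4.83 and 11.0 ± 1.57 CPM, SD, n = 3 each). RNA of dental mesenchyme and dental epithelium was present in both groups. The 14 markers of dental mesenchyme summed to 1730 to 1830 CPM in control and 1930 to 1960 CPM in Lhx6-/- libraries, and the 14 markers of dental epithelium, most of it RNA of the enamel gene Amelx, to 136000 to 146000 and 115000 to 147000 CPM. Of those 14 epithelial markers 13 had lower levels in Lhx6-/- tissue (median log2 fold change -0.47), and of the 14 mesenchyme markers 12 had higher levels (median 0.15). Y-linked genes summed to 14.6 to 58.0 CPM in control and 55.1 to 92.1 CPM in Lhx6-/- libraries, and control replicate 2, at 58.0 CPM, was the one control library in the Lhx6-/- range. In what follows a gene met the rule if its fold was 1.5 or more and its unadjusted p was below 0.05. Adjusted p-values come from edgeR (quasi-likelihood, Benjamini-Hochberg over all 20114 tested genes).

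Sequence just before annotated start sites is shown for Ntf3, Ngfr and Ntrk2, since their libraries did not overlap between genotypes and the RefSeq promoter table (GRCm38.p6) held them. The stretches lie on GRCm38 at chr6:126164961-126165210 on the minus strand for Ntf3, before the downstream one of its 2 listed starts and inside the annotated span of the gene, at chr11:95587736-95587948 on the minus strand for Ngfr, and at chr13:58806319-58806568 on the plus strand for Ntrk2. None overlaps an annotated exon of its gene. Capitals mark the GC box GGGCGG, in either orientation.
Ntf3: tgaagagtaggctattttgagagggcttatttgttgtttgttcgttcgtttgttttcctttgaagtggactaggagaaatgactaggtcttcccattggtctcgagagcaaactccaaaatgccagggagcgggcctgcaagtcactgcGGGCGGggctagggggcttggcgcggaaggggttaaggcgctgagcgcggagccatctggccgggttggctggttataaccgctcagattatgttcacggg
Ngfr: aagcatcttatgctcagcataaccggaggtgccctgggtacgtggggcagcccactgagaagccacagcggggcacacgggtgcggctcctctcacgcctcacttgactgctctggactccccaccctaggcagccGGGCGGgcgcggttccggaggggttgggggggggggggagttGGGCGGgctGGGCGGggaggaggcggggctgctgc
Ntrk2: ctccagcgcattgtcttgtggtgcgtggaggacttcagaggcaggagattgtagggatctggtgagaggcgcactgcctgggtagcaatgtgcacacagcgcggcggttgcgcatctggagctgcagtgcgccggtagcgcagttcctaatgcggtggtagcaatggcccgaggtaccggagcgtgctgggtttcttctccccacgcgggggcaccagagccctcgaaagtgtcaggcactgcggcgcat
The table gave 14 windows of 250 bases before a start for 6 of the 9 genes. It gave none for Ntrk3, Gfra2 and Ret, so these genes were not searched. No window held TAATTA, the palindromic core that LIM-homeodomain factors such as Lhx6 recognise, searched on both strands, and 4.84% of the 32851 windows of all genes held it. That says only that these letters are not in these windows. The GC box was in 5 of the 14 windows, with 4 copies in the full Ngfr window, 1 in each of the 2 Ntf3 windows and none in that of Ntrk2, against 32.7% of all windows. The Ngfr window was also the richest in G and C among the 14, at 70.4%, beside 62.8% for Ntrk2, 54.0% for the Ntf3 window shown and a median of 52.4% over all windows.

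Ntrk3, Gfra2 and Ntf3 met the rule, all 3 with higher levels in Lhx6-/- tissue, and no member met it with a lower level. Over all tested genes 3.28% met the rule in either direction and 1.58% with a higher level. None of the 9 had an adjusted p under 0.05, which 0.403% of tested genes had, and 5 had an unadjusted p under 0.05, which 9.81% of tested genes had. DESeq2 gave 3 of the 9, Ntrk3, Gfra2 and Ngfr, an adjusted p under 0.05, against 1.6% of the genes it tested, and limma-trend gave 1, Gfra2, against 0.408%. In 4 genes, Ntrk3, Gfra2, Ngfr and Ntf3, the lowest Lhx6-/- library exceeded the highest control library, as in 7.86% of tested genes, and in Ntrk2 the highest Lhx6-/- library was below the lowest control library, as in 7.68%. The libraries of Bdnf, Gdnf, Gfra1 and Ret overlapped.

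**Figure D1:**
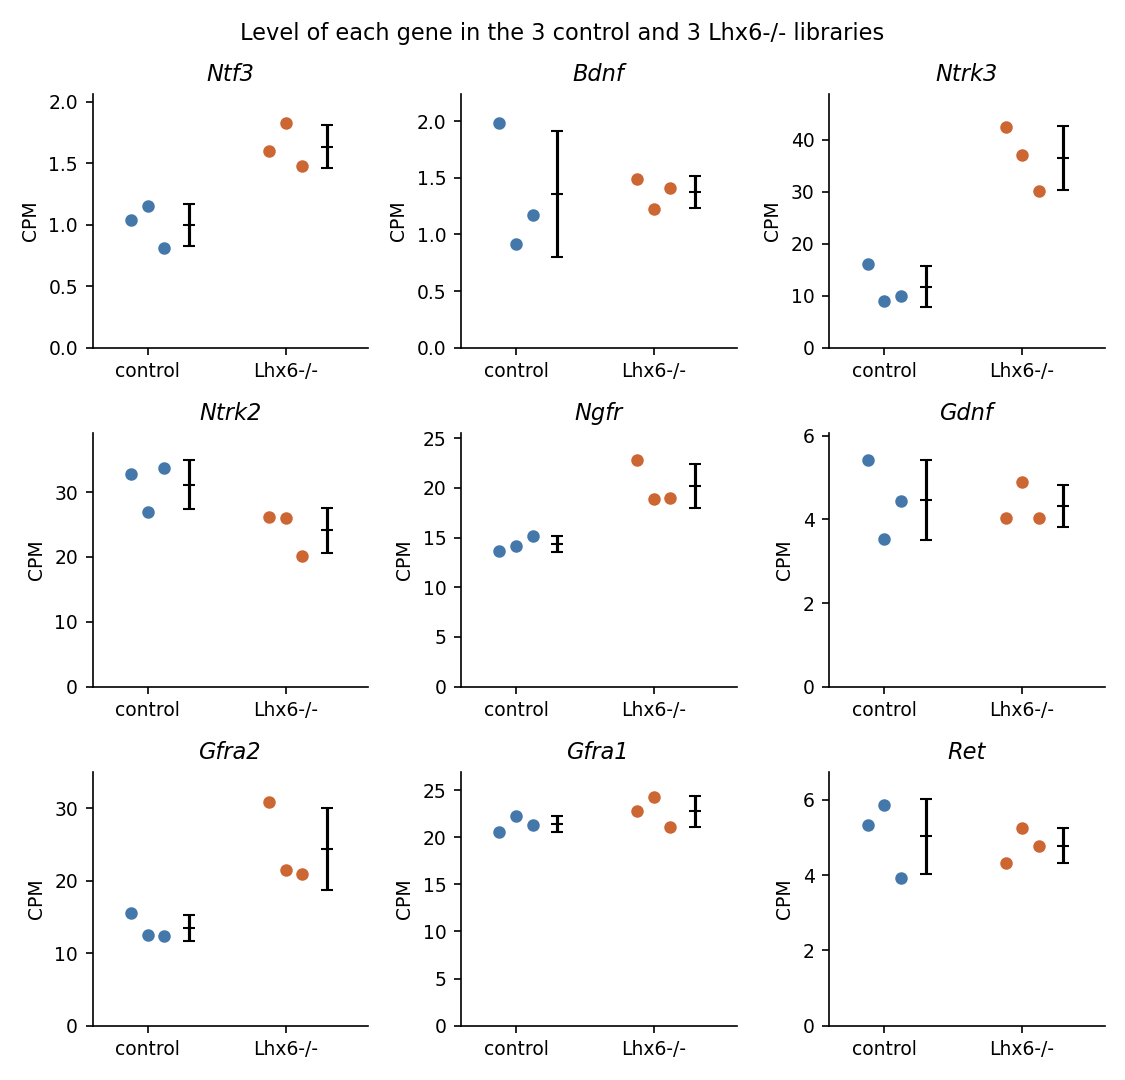
Level of each of the 9 genes in counts per 1000000 (CPM, linear axes from 0) in the 3 control (blue) and 3 Lhx6-/- (orange) libraries, with the mean and SD of each group as a black bar beside the points. Ntrk3 ran from 8.92 to 16.2 CPM in control and from 30.2 to 42.5 CPM in Lhx6-/- libraries, while the points of Bdnf, Gdnf, Gfra1 and Ret overlapped.

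Among the ligands, only Ntf3 had groups that did not overlap. Ntf3, the gene of NT-3, lies on chromosome 6 from 126101412 to 126166910 on the minus strand and was at 1.04, 1.15 and 0.812 CPM in control replicates 1, 2 and 3 and at 1.6, 1.83 and 1.48 CPM in the Lhx6-/- replicates. Group means were 1.0 ± 0.174 and 1.64 ± 0.176 CPM (SD, n = 3 each), with a log2 fold change of 0.70 (SE 0.30, 95% interval 0.05 to 1.36, adjusted p = 0.478 from edgeR). These levels rest on 48 to 77 counts per control library and 98 to 136 per Lhx6-/- library, few enough that counting error adds to the spread between pools. Ntf3 met the rule in 9 of 17 alternative fits, and in 1 of the 6 fits that left out a library. With control replicate 3 left out the log2 fold change was 0.58, and with the Y-linked level as a covariate it was 0.43.

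Bdnf, on chromosome 2 from 109674700 to 109727007 on the plus strand, encodes the main ligand of TrkB. It was at 1.98, 0.913 and 1.17 CPM in the control libraries and 1.49, 1.22 and 1.41 CPM in the Lhx6-/- libraries, all of which fell inside the control range. The log2 fold change was 0.02 (SE 0.34, 95% interval -0.72 to 0.77), so that a change of up to 1.70-fold in the upward direction lay within the interval. Control replicate 1 alone was high, and 896 exonic bases of Bdnf are shared with the antisense gene Gm45346; whether counting used strand is not given in the sources used here. Gdnf, the ligand of the GFRα1 complex, on chromosome 15 from 7810846 to 7837575 on the plus strand, was at 5.43, 3.52 and 4.43 CPM in control and 4.03, 4.89 and 4.04 CPM in Lhx6-/- libraries. The Lhx6-/- libraries again lay within the control range, and the log2 fold change was -0.04 (SE 0.20, 95% interval -0.48 to 0.39).

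Of the Trk receptors, Ntrk3 was higher and Ntrk2 lower in Lhx6-/- tissue. Ntrk3, on chromosome 7 from 78175959 to 78738012 on the minus strand, was at 16.2, 8.92 and 9.94 CPM in control replicates 1, 2 and 3 and at 42.5, 37.0 and 30.2 CPM in the Lhx6-/- replicates. The lowest Lhx6-/- library was well above the highest control library, which was replicate 1. Group means were 11.7 ± 3.95 and 36.5 ± 6.17 CPM (SD, n = 3 each), with a log2 fold change of 1.64 (SE 0.25, 95% interval 1.05 to 2.24) or 3.12-fold, the largest of the 9 genes. Its unadjusted p ranked 97 among the 20114 genes, and the adjusted p was 0.0764 from edgeR. Without control replicate 1 the log2 fold change was 1.96 and the adjusted p from edgeR 0.000440. The difference moved with the covariates: the log2 fold change was 1.18 with the level of dental epithelium markers in the fit and 2.12 with the Y-linked level. Over 17 alternative fits the adjusted p ran from 5.44e-05 to 0.259, with 4 under 0.05 and the rule met in all 17. Counts of the antisense gene Gm9885, which lies in an intron of Ntrk3 and shares no exonic base with it, were 14 to 35 per control library and 30 to 61 per Lhx6-/- library, against 588 to 1009 and 2245 to 2753 for Ntrk3.

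Ntrk2, on chromosome 13 from 58806569 to 59133970 on the plus strand, encodes TrkB, which has a full-length kinase form and truncated forms that the gene totals do not separate. It was at 32.8, 26.9 and 33.8 CPM in control and 26.2, 26.0 and 20.1 CPM in Lhx6-/- libraries. The groups did not overlap, but control replicate 2 was within 1 CPM of Lhx6-/- replicates 1 and 2. Group means were 31.2 ± 3.72 and 24.1 ± 3.43 CPM (SD, n = 3 each), and the log2 fold change was -0.37 (SE 0.12, 95% interval -0.63 to -0.11, adjusted p = 0.297 from edgeR). This difference moved with the covariates: it was -0.08 with the Y-linked level in the fit and -0.61, past the rule, with the level of dental epithelium markers.

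Ntrk3 and Ntrk2 differed in opposite directions, and their ratio within a library separated the genotypes further than either gene. The ratio of Ntrk3 to Ntrk2 estimated counts was 0.494, 0.331 and 0.294 in control and 1.62, 1.42 and 1.5 in Lhx6-/- libraries. Ntrk2 thus had more counts than Ntrk3 in every control library and fewer in every Lhx6-/- library, and the geometric mean ratio differed 4.16-fold. Per kilobase of merged exons, a scale that divides by the length of all annotated exons, the ratio was 0.188 to 0.316 in control and 0.909 to 1.04 in Lhx6-/- libraries, so both genes came to similar levels per length in Lhx6-/- tissue. With the longest transcript as the length it was 0.131 to 0.219 and 0.631 to 0.721, and Ntrk2 stayed above Ntrk3 in every library. The ratio was chosen after both genes' values were known and carries no test.

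**Figure D2:**
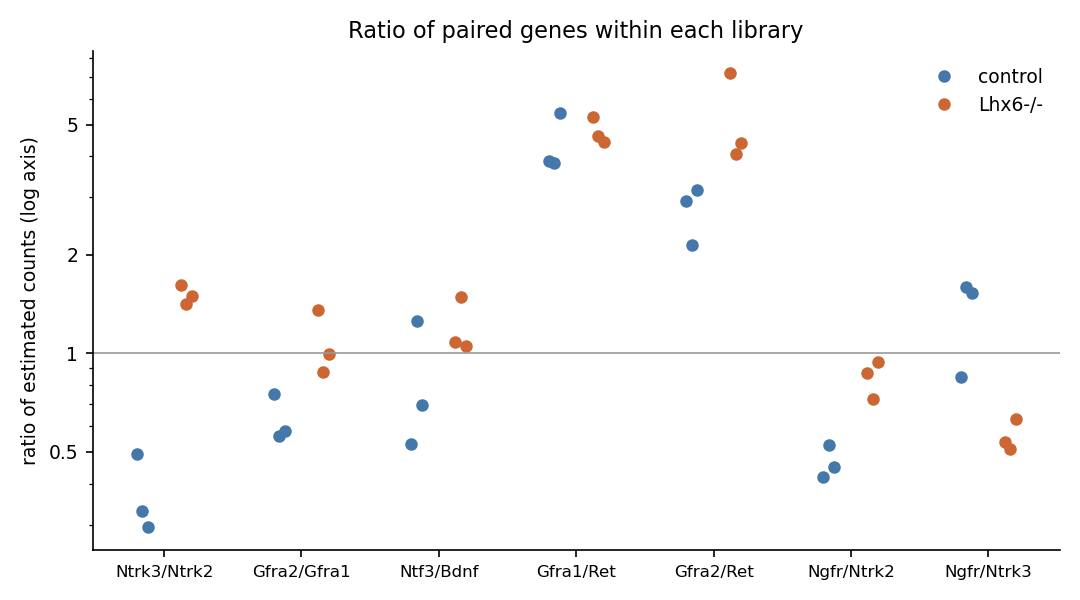
Ratio of estimated counts of 7 gene pairs within each library (log axis, grey line at 1), for 3 control (blue) and 3 Lhx6-/- (orange) libraries. The Ntrk3/Ntrk2 ratio lay below 1 in the control libraries (0.294 to 0.494) and above 1 in the Lhx6-/- libraries (1.42 to 1.62), and the groups overlapped for Ntf3/Bdnf and Gfra1/Ret.

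Ngfr, on chromosome 11 from 95568818 to 95587735 on the minus strand, encodes the p75NTR co-receptor. It was at 13.7, 14.2 and 15.2 CPM in control and 22.8, 18.9 and 19.0 CPM in Lhx6-/- libraries. The control libraries were close together, with every Lhx6-/- library above them. Group means were 14.4 ± 0.733 and 20.2 ± 2.19 CPM (SD, n = 3 each), and the log2 fold change of 0.49 (SE 0.10, 95% interval 0.26 to 0.72, adjusted p = 0.0911 from edgeR) was 1.41-fold, short of the fold in the rule. Among the 17 alternatives the adjusted p ran from 0.00704 to 0.361 and was under 0.05 in 1, DESeq2. Relative to the Trk receptors, Ngfr counts were 0.419 to 0.526 of those of Ntrk2 in control and 0.728 to 0.943 in Lhx6-/- libraries, but 0.847 to 1.59 and 0.512 to 0.629 of those of Ntrk3.

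In the GDNF receptor system, the neurturin co-receptor Gfra2 was higher in Lhx6-/- tissue, whereas the GDNF co-receptor Gfra1 and the shared kinase Ret overlapped between genotypes. Gfra2, on chromosome 14 from 70890120 to 70979838 on the plus strand, was at 15.5, 12.5 and 12.4 CPM in control and 30.9, 21.4 and 20.9 CPM in Lhx6-/- libraries. Replicate 1 was the highest library of each group, and the groups did not overlap. Group means were 13.5 ± 1.78 and 24.4 ± 5.65 CPM (SD, n = 3 each), with a log2 fold change of 0.86 (SE 0.16, 95% interval 0.50 to 1.21) or 1.81-fold, with an unadjusted p ranked 85 and an adjusted p of 0.0628 from edgeR. Over 17 alternatives the adjusted p ran from 4.25e-05 to 0.318 and was under 0.05 in 7, among them the fits from edgeR without control replicate 1 (0.0380) and without Lhx6-/- replicate 3 (0.0453). Gfra2 met the rule in 16 of the 17; with the dental epithelium level as covariate its log2 fold change was 0.57, just under 1.5-fold.

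Gfra1, on chromosome 19 from 58235604 to 58455909 on the minus strand, was at 20.6, 22.3 and 21.3 CPM in control and 22.8, 24.3 and 21.1 CPM in Lhx6-/- libraries. Its interval was the narrowest of the 9 genes: the log2 fold change was 0.08 (SE 0.09, 95% interval -0.11 to 0.28), which leaves out a 1.5-fold difference in either direction. The antisense gene Gm16277, which shares 416 exonic bases with Gfra1, had at most 12.99 counts in a library. Ret, on chromosome 6 from 118151745 to 118197718 on the minus strand, was at 5.33, 5.85 and 3.92 CPM in control and 4.32, 5.26 and 4.77 CPM in Lhx6-/- libraries, with a log2 fold change of -0.07 (SE 0.19, 95% interval -0.49 to 0.34). All 3 Lhx6-/- libraries lay inside the control range of Ret. The Gfra2 to Gfra1 ratio of counts was accordingly 0.560 to 0.753 in control and 0.880 to 1.36 in Lhx6-/- libraries, and that of Gfra2 to Ret 2.14 to 3.16 and 4.06 to 7.16, while the Gfra1 to Ret ratio overlapped.

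**Figure D3:**
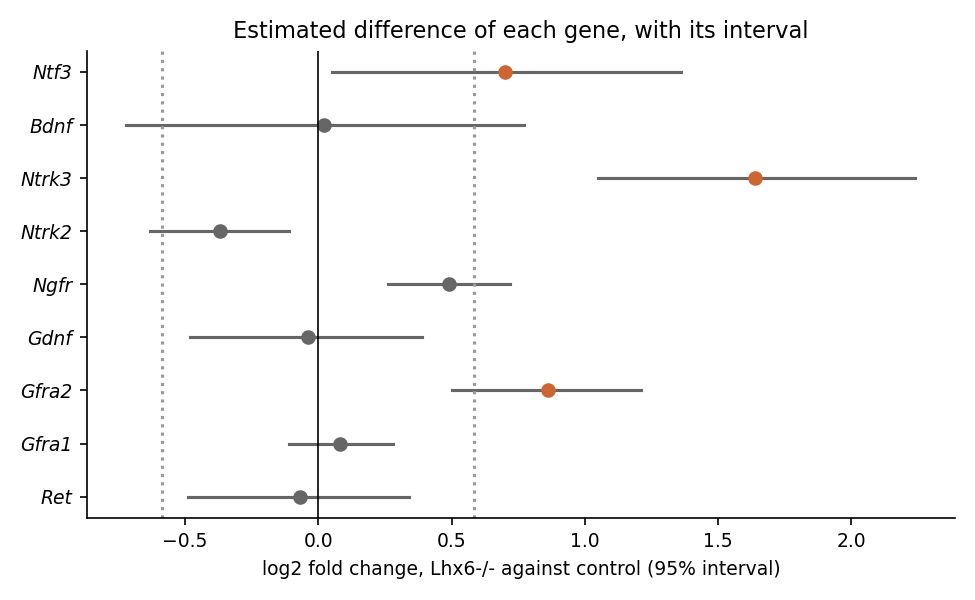
Log2 fold change of each of the 9 genes, Lhx6-/- against control, from edgeR's quasi-likelihood fit of 3 against 3 libraries (points) with 95% intervals (lines); orange points met the rule and dotted lines mark 1.5-fold. Ntrk3 stands apart at 1.64, Gfra2 and Ntf3 follow at 0.86 and 0.70, and the intervals of Bdnf, Gdnf, Gfra1 and Ret cross 0.

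Per kilobase of merged exons, the receptors that bind ligand without a kinase domain led in both groups. In control tissue Ngfr was at 4.17 ± 0.213, Gfra1 at 3.91 ± 0.156 and Gfra2 at 3.81 ± 0.502 CPM per kb (SD, n = 3), and neighbours among these 3 overlapped. Ntrk2 followed at 1.62 ± 0.193 CPM per kb, overlapping Gdnf at 1.21 ± 0.261, and then came Ret, Ntf3, Ntrk3 at 0.387 ± 0.131 and Bdnf at 0.217 ± 0.0893, each overlapping the next in that order. In Lhx6-/- tissue Gfra2 came first at 6.90 ± 1.6 CPM per kb, overlapping Ngfr at 5.87 ± 0.636, and Ntrk3 stood at 1.21 ± 0.204 between Ntrk2 at 1.25 ± 0.178 and Gdnf at 1.18 ± 0.134, overlapping both. Bdnf stayed last at 0.221 ± 0.0221 CPM per kb. Among the 23180 genes with an annotated length, Ntrk3 moved from the 33.0 to the 48.2 percentile of level per length, Gfra2 from the 68.1 to the 79.6 and Ngfr from the 69.8 to the 76.5, while Bdnf was at 25.5 and 25.8. The order depends on the length used: with the longest transcript, Gfra1 led control tissue at 4.62 CPM per kb and Ntrk2 was at 3.56, next to Gfra2 at 3.88.

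**Figure D4:**
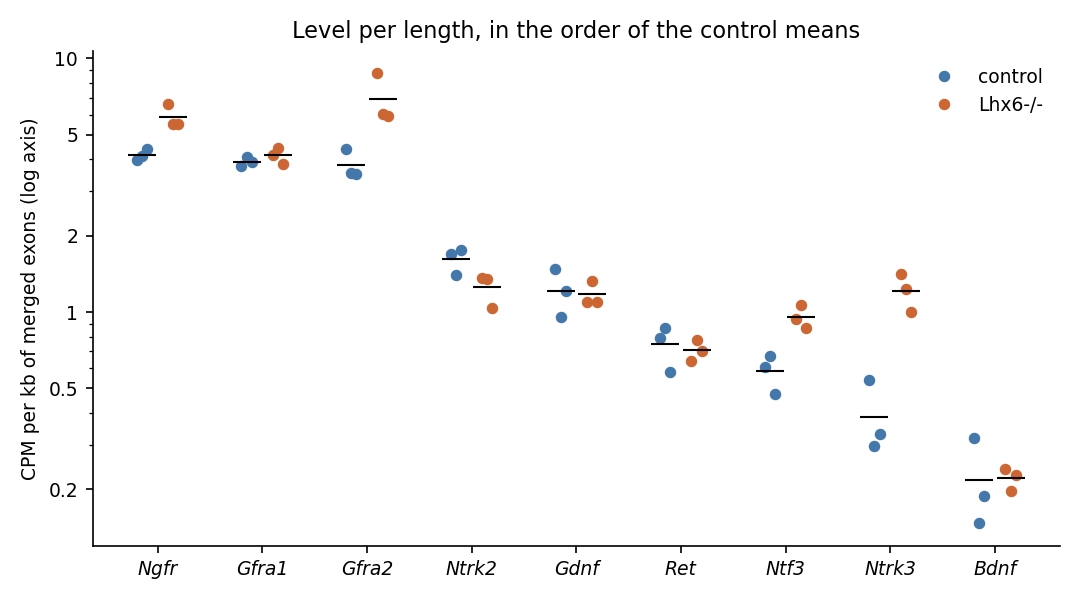
Counts per 1000000 per kilobase of merged exons (log axis) of the 9 genes, ordered by the control mean, in each control (blue) and Lhx6-/- (orange) library, with black bars at the group means. Ngfr, Gfra1 and Gfra2 lie together at the top of the control order (3.81 to 4.17), and Ntrk3 is next to last in control at 0.387 and level with Ntrk2 and Gdnf in Lhx6-/- libraries at 1.21.

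The other genes of both pathways were read from 6 lists of 94 genes, of which 86 were tested. Only Gfra3 and Dok6 met the rule, both with higher levels. Over all tested genes 3.28% met it in either direction and 1.58% with a higher level, so these 2 of 86 are not set apart from that background. None of the 86 had an adjusted p under 0.05 from edgeR, which 0.403% of tested genes had. Of the 86, 55 had higher and 31 lower levels (median log2 fold change 0.05), beside 9996 higher and 10118 lower over all tested genes. Gfra3, the co-receptor of artemin, was at 1.67, 1.51 and 1.84 CPM in control and 3.68, 2.77 and 3.44 CPM in Lhx6-/- libraries, with no overlap, a log2 fold change of 0.98 (SE 0.23) and an adjusted p of 0.139 from edgeR, and it met the rule in all 17 alternatives. Dok6, an adaptor that docks on Ret, was at 2.36, 1.84 and 3.69 CPM and 5.40, 3.26 and 4.74 CPM, with overlap, and a log2 fold change of 0.77 (SE 0.28). Dok6 met the rule in 13 of the 17 alternatives, but missed it with control replicate 1 or 2 or Lhx6-/- replicate 1 left out, and with the dental epithelium level as covariate. With the Y-linked level as covariate 9 pathway genes met the rule, but so did 1174 of all 20114 tested genes, in place of 660. Among the 9 were Egr1 (log2 fold change 0.83) with higher and Ntf5 (-0.82) with lower levels.

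The other ligands and receptors of both families described here did not meet the rule. Ntf5, the gene of NT-4 and so of the other TrkB ligand, was at 4.66, 6.73 and 4.63 CPM in control and lower, at 4.04, 3.60 and 3.98 CPM, in Lhx6-/- libraries (log2 fold change -0.46, SE 0.19, adjusted p = 0.459 from edgeR). The Lhx6-/- libraries of Ntrk2 and of Ntf5 thus lay below all control libraries, as they did for 7.68% of tested genes. Neither gene met the rule, and the libraries of Bdnf, the gene of the main TrkB ligand, overlapped. Neurturin (Nrtn), the ligand of GFRα2, was at 1.48 ± 0.575 and 1.55 ± 0.0982 CPM, and artemin (Artn), the ligand of GFRα3, at 1.05 ± 0.342 and 1.13 ± 0.372 CPM (SD, n = 3 each), both with overlap. Mean levels of both ligands differed by less than the spread between libraries, but their intervals were wide. The 95% interval of the log2 fold change was -0.63 to 0.77 for Nrtn and -0.73 to 0.95 for Artn. Changes of up to 1.70-fold and 1.93-fold upward lay within them. Both co-receptors were higher, with adjusted p of 0.0628 for Gfra2 and 0.139 for Gfra3 from edgeR. Ncam1, a cell adhesion molecule that also binds GDNF with GFRα1, was at 138 ± 9.48 and 173 ± 12.9 CPM (SD, n = 3 each), with no overlap and an adjusted p of 0.160 from edgeR.

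Downstream of the receptors, 20 of 28 tested adaptors were higher and 8 were lower (median log2 fold change 0.06), and 7 of 16 partners of p75NTR were higher with a median of -0.01. Of 22 feedback regulators and response genes, which include Spry2, Dusp6, Etv5, Egr1 and Fos, 13 were higher and 9 lower with a median of 0.05, and none met the rule. Dusp6, a phosphatase induced by ERK signalling, was at 24.5 ± 1.78 CPM in control and 24.4 ± 1.18 CPM in Lhx6-/- tissue (SD, n = 3 each). Fos was the one gene of that list whose groups did not overlap, at 18.3 ± 0.0932 and 15.5 ± 0.893 CPM (SD, n = 3 each). It was lower in Lhx6-/- tissue (log2 fold change -0.24, SE 0.09, adjusted p = 0.407 from edgeR). Over all tested genes 7.86% were higher and 7.68% lower without overlap.

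**Figure D5:**
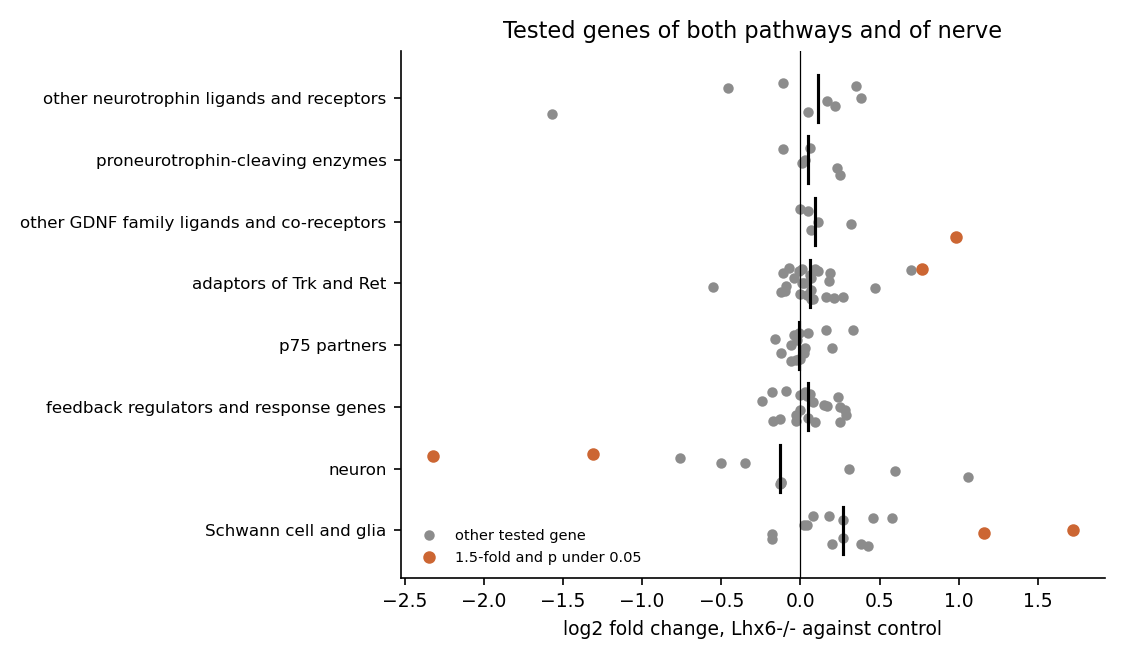
Log2 fold change, Lhx6-/- against control, of every tested gene in 6 pathway lists and in the marker lists of neurons and of Schwann cells and glia, with list medians as black bars and genes that met the rule in orange. Pathway medians lie between -0.01 and 0.11, and the 2 pathway genes in orange are Gfra3 at 0.98 and Dok6 at 0.77.

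Several of the 9 genes are also used by nerve, so markers of neurons and of glia were read beside them. The 16 neuron markers summed to 62.0 to 71.1 CPM in control and 55.9 to 63.0 CPM in Lhx6-/- libraries, and 3 of 11 tested markers were higher and 8 lower. The 2 that met the rule were lower: the neurofilament gene Nefm, without overlap, at 0.429 ± 0.0469 and 0.0835 ± 0.0557 CPM (log2 fold change -2.32, SE 0.74), and the synaptic gene Snap25, with overlap, at 1.37 ± 1.12 and 0.554 ± 0.195 CPM (log2 fold change -1.31, SE 0.55; SD, n = 3 each), where control replicate 2 alone was high at 2.66 CPM. The neuronal tubulin gene Tubb3, at 24.0 ± 0.378 and 18.8 ± 2.11 CPM (SD, n = 3 each), was also lower without overlap, and Prph and Gap43 were higher without overlap (log2 fold changes 0.60 and 0.31). None of the 11 had an adjusted p under 0.05 from edgeR. Pou4f1, a defining gene of sensory neurons, had too few counts to be tested, at 0, 1 and 0 in control and 0, 14 and 23 in Lhx6-/- libraries. The 15 markers of Schwann cells and glia summed to 322 to 761 CPM in control and 351 to 785 CPM in Lhx6-/- libraries, in ranges that nearly coincide, and 13 of them were higher and 2 were lower (median log2 fold change 0.27). In that list Cdh19 was at 0.633 ± 0.112 and 2.10 ± 0.318 CPM (log2 fold change 1.72, SE 0.31, adjusted p = 0.0377 from edgeR) and Foxd3 at 1.17 ± 0.496 and 2.61 ± 0.543 CPM (log2 fold change 1.16, SE 0.33, adjusted p = 0.233 from edgeR), neither with overlap. Within groups the members did not follow the glial sum: control replicate 1 had the lowest sum, 322 CPM, and the highest Ntrk3 and Gfra2, and Lhx6-/- replicate 1, with the highest Gfra2 and Ngfr, had 656 CPM beside 785 CPM in replicate 3. All 8 endothelial markers were higher too, with sums of 291 to 298 CPM in control and 332 to 387 CPM in Lhx6-/- libraries. In 6 of the 8 the groups did not overlap, as in 7.86% of tested genes in that direction. The only one to meet the rule was Cldn5 (log2 fold change 0.64, SE 0.09, adjusted p = 0.0140 from edgeR). The part of these cell types in the differences of Ntrk3, Gfra2 and Ngfr was not tested.

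The genes whose log2 CPM followed Gfra2, the higher gene with the smallest p, most closely across the 6 libraries were Tbc1d32 (Pearson's r = 0.996), Serping1 (0.996) and Ptges (0.995), out of 15112 searched. Ptges, which makes prostaglandin E2, was at 9.41, 8.51 and 8.67 CPM in control and 15.8, 12.1 and 12.1 CPM in Lhx6-/- libraries, with replicate 1 highest in each group as for Gfra2. Those closest to Ntrk2 were Gm21972 (0.991), Traf3ip3 (0.985) and Cisd2 (0.984). These values are maxima over many genes across 6 points that include the difference between genotypes, and carry no p.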

How the data were processed

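Per the labels and the methods, the authors trimmed single-end reads of 75 cycles, aligned them to mm10 with STAR 2.6.1d and quantified genes in Partek. The authors deposited estimated counts of 23594 genes for 3 control and 3 Lhx6-/- libraries, without normalization; the counter's settings, its annotation and its use of strand are not given in the sources used here. A second table with the authors' means, ratios, fold changes and p-values gave gene names and positions only. Its mean column fixed the order of the genes, within a relative deviation of 8.66e-08 over all 23594.

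Estimated counts were rounded and tested for genotype with edgeR 4.0.16 in R 4.3.3 (quasi-likelihood, robust, two-sided; TMM factors 0.977 to 1.04; filterByExpr). CPM are the deposited estimated counts per 1000000 of the TMM-scaled library total. Each SE is the size of the log2 fold change over the square root of F. The spread of 3 pools a group limited precision, as did counting error where counts were few. Lengths and positions are from GENCODE vM21, in which 23180 gene names were found. Replicates carry the numbers of the sample titles, though the deposited table numbers the Lhx6-/- libraries 2, 3 and 4. p-values from edgeR rest on spread between these pools and on counting error, with dispersions moderated over all tested genes. They measure no spread between single mice.

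The members, lists, covariates and tests were chosen with earlier results of these data known. Named genes were all members, pathway genes that met the rule, listed ligands and receptors (some are not reported here), marker genes beside a result, and the 3 genes most like the higher and the lower member with the smallest p; Dusp6, Fos, Pou4f1, Prph, Gap43 and the covariate-dependent genes were named after their values were seen. The 17 alternatives were other scalings and filters, DESeq2 1.42.0, limma-trend (limma 3.58.1), dispersion without robust fitting, the replicate number as a block, Y-linked and epithelial covariates, and leaving out each library. The code was tested on simulated counts of 3 control and 3 Lhx6-/- libraries. At an adjusted p under 0.05 from edgeR it recovered 51 of 100 genes changed 2-fold and 72 of 100 changed 3-fold. Real changes of this size can therefore miss that threshold. Among 19498 tested genes there were 13 false calls beside the 51 and 72 genes recovered, so genes that pass it can include false ones. Figures were drawn with matplotlib 3.10.9.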

Additional observations from a re-analysis of the deposited data

How the results depend on the processing

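Ntrk3, Gfra2, Ngfr, Ntf3, Ntrk2 and Gfra1 kept their direction in all 17 alternative fits, Ret in 15, and Bdnf and Gdnf in 13. The number of the 9 genes with an adjusted p under 0.05, 0 in the reported edgeR fit, was 3 with DESeq2, 1 with limma-trend, 1 with total-count scaling, 1 with at least 10 counts in every library, 1 with non-robust dispersion and 0 to 2 with a library left out; over all genes the same threshold was passed by 0.057% to 1.6% across the alternatives. Those meeting the rule were 2 or 3 in every fit, though not the same genes, and 1, Ntrk3, at 2-fold. With the Y-linked level as covariate 1174 genes met the rule in place of 660, and 9 pathway genes in place of 2; leaving out a library gave 1 to 3 pathway genes and 607 to 968 genes in all. The cause was not tested.

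With the replicate number as a block, 2 of the 9 genes had an adjusted p under 0.05 from edgeR, Ntrk3 (0.000155) and Gfra2 (0.00256), 652 genes and 3 pathway genes met the rule, and Ntf3 no longer did. The deviations of same-numbered libraries from their group means correlated at 0.026, -0.029 and -0.031 by the titles' numbers, which gives no sign that these numbers pair the libraries. The deposited table numbers the Lhx6-/- libraries from 2 to 4 instead, and for the 2 numbers then shared the correlations were -0.062 and -0.006. Which libraries form the pairs named in the methods could not be told.

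With 3 pools per group, differences near 1.5-fold in genes of about 1 CPM, such as Ntf3 and Bdnf, were at the limit of what this depth and spread resolve. Gene totals do not separate receptor isoforms, and the Y-linked and epithelial levels of the pools differed in part with genotype.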
